A study of Homo sapiens with 6 samples.

Results

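The genes described here encode the subunits of the nuclear RNA polymerases I, II and III. They are the rows of the deposited expression table whose gene name is POLR1, POLR2 or POLR3 followed by a subunit letter, with pseudogenes and antisense genes left out. The name pattern matched 39 of 31368 rows. 5 of these were pseudogenes (both POLR2J4 rows, POLR3GP1, POLR2KP1 and POLR3DP1), which left 34 members with 33 gene names, since POLR2J3 has a pair of identifiers. Expression was measured by RNA-seq of poly-A-selected RNA in CAL27, a human oral squamous carcinoma line. There were 3 libraries from CAL27 cells given 10 mM lactate for 24 hours and 3 from CAL27 cells with no treatment. All libraries share the cell line. Separate cultures are not mentioned for the replicates, so the p-values cover the spread among these libraries alone, and that spread may be technical. The labels name neither the form of the lactate nor the medium. The comparison asks how mRNAs for the transcription machinery differed after a day of lactate.

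RNA polymerase I makes the large ribosomal RNA precursor, RNA polymerase II makes mRNAs, and RNA polymerase III makes transfer RNAs and other small RNAs. Each enzyme has a pair of large subunits that form the catalytic centre, an assembly pair that resembles the bacterial alpha subunits, a stalk, a zinc-ribbon subunit that takes part in transcript cleavage or termination, and a set of small subunits that all 3 enzymes share. Polymerases I and III also share their alpha-like pair, and they carry built-in subunits related to general factors of polymerase II. Of the 34 members, 6 belong to polymerase I only, 2 to I and III, 11 to II only, 5 to all 3 enzymes and 10 to III only. Those counted under II only include POLR2M, a protein that binds the enzyme, and the POLR2J copies POLR2J2 and POLR2J3.

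The libraries held 25690377 to 39142654 reads, as recovered from the steps of the FPKM values (fragment counts scaled to gene length and library size), and the members tested had 70 to 8255 reads per library. All 8 squamous keratinocyte markers looked at were tested, with summed levels of 360 to 369 FPKM in lactate and 353 to 355 FPKM in untreated libraries. In lactate 6 of these 8 were higher and 2 (KRT5 and KRT6A) lower. None of the 9 fibroblast and leukocyte markers in the table reached the level for testing. Fibroblast markers summed to 1.59 to 1.79 FPKM in lactate and 1.04 to 1.19 FPKM in untreated libraries, and leukocyte markers to 0.392 to 0.618 FPKM in lactate and 0.749 to 0.907 FPKM in untreated libraries. The 3 endothelial markers summed to 1.03 to 1.13 FPKM in lactate and 1.13 to 1.41 FPKM in untreated libraries. The part that these small differences have in the results was not tested.

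Most subunit mRNAs were lower in lactate. Of 33 members tested, 21 fell and 4 rose, and 8 did not pass (limma, Benjamini-Hochberg adjusted p under 0.05 over 11792 tested genes). These 25 calls were 75.8% of the members, against 58.6% of all genes tested. Falls made up 63.6% of the members and 30.9% of all genes, and rises 12.1% of the members and 27.7% of all genes. Members had a median level of 10.0 FPKM, against 5.67 FPKM over all genes tested. With 5 FPKM required in at least 3 libraries, 20 of 29 members fell and 4 rose, at a median log2 fold change of -0.22. Over the 6448 genes so tested 45.8% fell and 27.7% rose (73.5% called), and the median was -0.071. The median log2 fold change of the members was -0.17, against -0.016 over all genes tested. All changes were small: the members ranged from -0.40 (POLR2L) to 0.26 (POLR1F) on the log2(FPKM + 1) scale. On that scale low genes show less than their full change. The 4 that rose were POLR1F, POLR2B, POLR2M and POLR3G. The 34th member, the POLR2J3 entry ENSG00000285437, was under 1 FPKM in every library and was not tested. The groups did not overlap in 28 members, against 65.5% of all genes tested. Every lactate library was below every untreated library in 23 of these (34.2% of all genes) and above in 5 (31.4% of all genes). Tested against a minimum change of 1.1-fold, 15 members passed (23.4% of all genes), 12 of them lower (12.4% of all genes) and 3 higher (POLR1F, POLR2B and POLR3G; 11.0% of all genes). Scaled to read totals, 17 members were lower (21.4% of all genes) and 8 higher (35.6%), where 57.1% of all genes were called. That scaling moved the median of all genes to 0.041 and that of the members to -0.12. The library sizes that the FPKM values imply exceeded the recovered reads in every lactate library and fell short in every untreated one. Lactate replicate 1 had 30957477 against 30400464, and untreated replicate 1 had 28287542 against 29217337. Fold changes on the FPKM scale are therefore lower than those on read totals. The RNA is from bulk cultures, so fewer cells with a transcript and less of it per cell cannot be told apart.

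**Figure D1:**
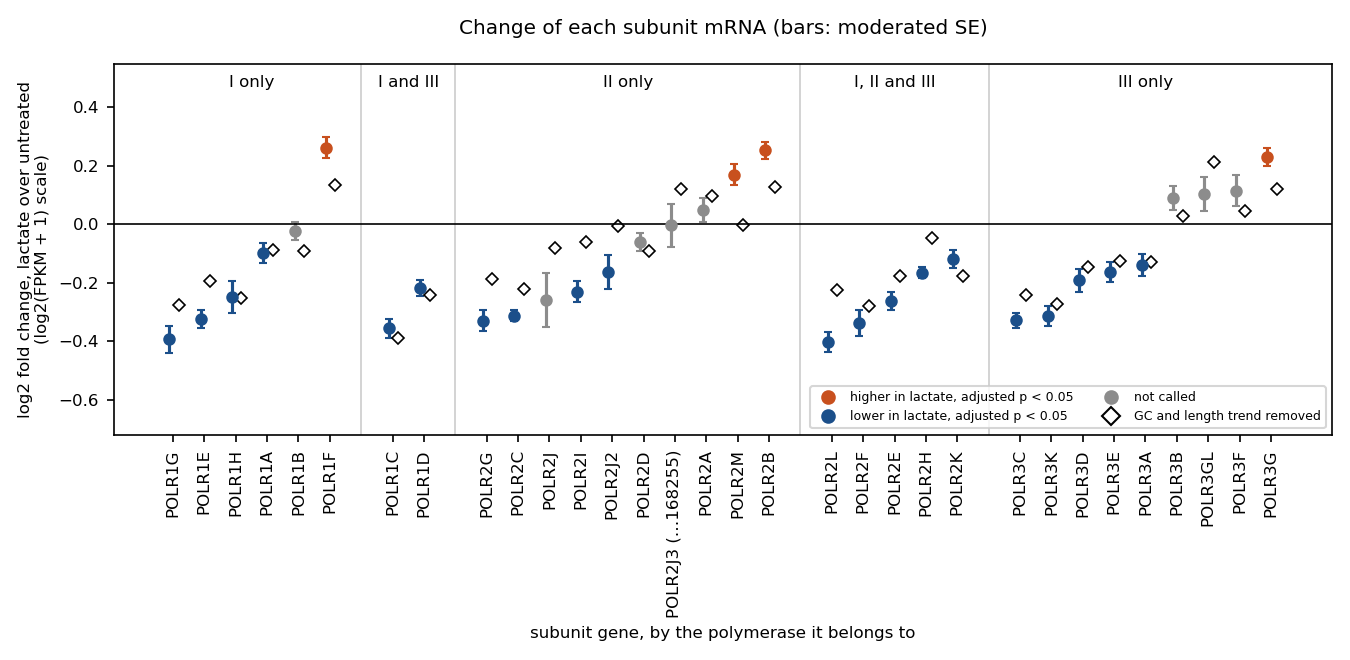
Log2 fold change, lactate over untreated, of 32 of the 33 tested members on the log2(FPKM + 1) scale, by the polymerase the subunit belongs to. Filled circles with bars are the fold change and its moderated SE, coloured by call, and open diamonds are values with the GC and length trend taken out of each library; all 7 subunits shared between enzymes lie below 0 by both measures.

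All 7 subunits that more than 1 enzyme uses fell. Counted by enzyme with the shared subunits included each time, 11 of 13 polymerase I subunits fell and 1 rose. Of 17 polymerase III subunits 13 fell and 1 rose. Of 15 polymerase II members, among them POLR2M and the copies of POLR2J, 9 fell and 2 rose. Without the shared subunits 4 of 6 fell and 1 rose for I, 4 of 10 and 2 for II, and 6 of 10 and 1 for III. Over all genes tested 30.9% fell and 27.7% rose. With the GC and length trend removed, II alone had 3 of 10 lower and 1 higher (25.7% and 22.9% of all genes). Among subunits of a single enzyme the medians were -0.17 for I, -0.11 for II and -0.15 for III, and among the 5 common to all 3 enzymes the median was -0.26. With the trend on GC content and length removed these medians were -0.14, -0.033, -0.13 and -0.18, and with read totals -0.12, -0.058, -0.088 and -0.19. Of the 15 polymerase II members 7 were then lower and 1 higher with the trend removed, and 7 lower and 3 higher with read totals. No test of the difference between enzymes was made. Summed over the 34 members, levels were 661 to 681 FPKM in lactate and 791 to 801 FPKM in untreated libraries. The sum over all genes of the table was lower in lactate too, at 398439 to 409127 FPKM in lactate and 432328 to 442352 FPKM in untreated libraries.

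Levels of the subunits differed more than their change with lactate. Gene positions given here are from GENCODE on GRCh38 and span the whole gene. The highest member was POLR2L (chromosome 11, 837356 to 842545), a small subunit of all 3 enzymes, at 149 ± 7.19 FPKM in lactate and 198 ± 3.70 FPKM in untreated cells (mean ± SD, n = 3 each). Small subunits of polymerase II such as POLR2C, POLR2G and POLR2J followed at 42.8 to 54.3 FPKM in lactate and 51.4 to 67.6 FPKM in untreated cells. The catalytic subunit genes stood far lower than these, from 2.86 FPKM (POLR1A) to 12.5 FPKM (POLR2B) in lactate and from 3.13 to 10.3 FPKM in untreated cells. They were not alone at such levels. POLR2D stood at 10.5 FPKM in lactate and 11.0 FPKM in untreated cells, POLR1G at 4.70 and 6.48 FPKM, and POLR3D at 5.07 and 5.93 FPKM. Subunits are present in equal number only within a given enzyme, and POLR2L serves all 3. Within polymerase II, POLR2A and POLR2B stood at 10.2 and 12.5 FPKM in lactate and at 9.83 and 10.3 FPKM in untreated cells. FPKM is scaled to gene length, and these levels lay below those of POLR2C, POLR2G and POLR2J in both groups.

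**Figure D2:**
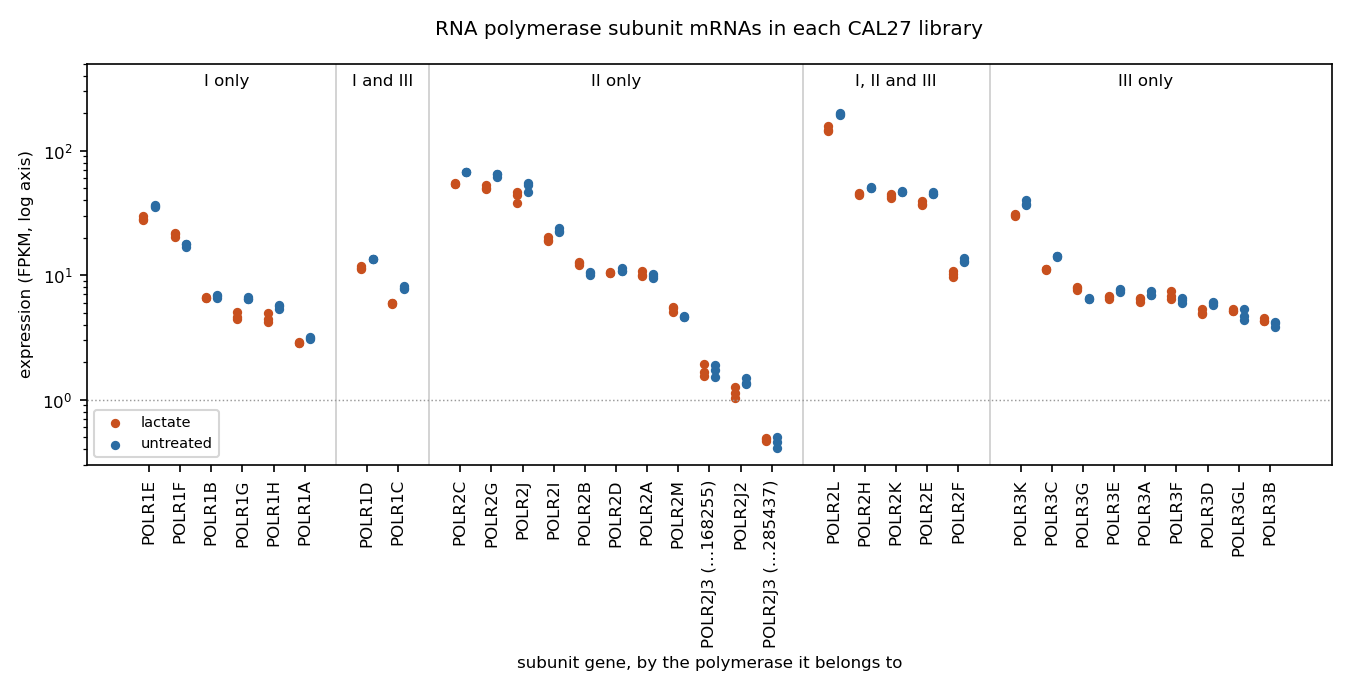
Expression of 33 of the 34 members in each library, in FPKM on a log axis, by the polymerase they belong to and ordered by mean level within a class. Each point is a library, with lactate left of untreated, and the dotted line marks 1 FPKM, the level used in the filter; POLR2L lies highest, at 144 to 158 FPKM in lactate and 194 to 201 FPKM in untreated libraries.

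Of the 6 catalytic subunit genes, the largest subunits of polymerases I and III fell slightly and the smaller catalytic subunit of polymerase II rose. POLR1A, the largest subunit of polymerase I, had 2.85, 2.88 and 2.85 FPKM in lactate replicates 1 to 3, against 3.12, 3.08 and 3.20 FPKM in untreated replicates 1 to 3. The groups did not overlap, and the log2 fold change was -0.10 (SE 0.033, limma adjusted p = 0.0345). This call was lost with any 1 library left out (limma adjusted p = 0.0513 to 0.102), with the replicate number as a block (0.0640), with the GC and length trend removed (0.0569), without the filter on low values (0.0698) and with libraries scaled to their read totals (0.288). POLR1B, its partner, had 6.60, 6.65 and 6.51 FPKM in lactate and 6.90, 6.52 and 6.74 FPKM in untreated libraries. Its groups overlapped and it was not called (log2 fold change -0.024, limma adjusted p = 0.528); scaled to read totals its sign turned (0.039), and with the trend removed it was called lower (-0.09 and 0.0332).

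POLR2A, the largest subunit of polymerase II with the C-terminal repeat domain, had 10.8, 10.0 and 9.86 FPKM in lactate and 10.2, 9.77 and 9.49 FPKM in untreated libraries. The groups overlapped, and the log2 fold change of 0.05 was not called (limma adjusted p = 0.341; with read totals 0.11 and 0.0348, with the trend removed 0.10 and 0.114). POLR2B (chromosome 4, 56977722 to 57031168), which completes the active centre, had 12.5, 12.2 and 12.8 FPKM in lactate, against 10.0, 10.4 and 10.5 FPKM in untreated libraries. All 3 lactate libraries lay above all 3 untreated ones, and the mean rose by 21.0% (log2 fold change 0.25, SE 0.0303, limma adjusted p = 0.000358; 0.13 and 0.00929 with the trend on GC content and length removed). Opposite-strand exons of NOA1 (mean 10.0 FPKM) and IGFBP7 (37.8 FPKM) overlap 7.85% and 4.58% of the POLR2B exon length. Whether strand was used in counting is not given. POLR3A, the largest subunit of polymerase III, had 6.50, 6.08 and 6.40 FPKM in lactate and 7.39, 6.94 and 6.86 FPKM in untreated libraries. The groups did not overlap and the fold change was -0.14 (SE 0.0387, limma adjusted p = 0.0167), a call lost with read totals (0.105), with untreated replicate 1 left out (0.0503) and without the filter on low values (0.0589). POLR3B had 4.28, 4.26 and 4.54 FPKM in lactate and 4.16, 3.83 and 4.11 FPKM in untreated libraries. Its lactate values lay above its untreated values in all libraries, but it did not pass (log2 fold change 0.09, limma adjusted p = 0.0897; 0.0145 with read totals; fold change 0.028 with the trend removed).

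Within each enzyme the ratio of the smaller to the larger catalytic subunit mRNA was higher in every lactate library than in every untreated library. A ratio within a library does not depend on scaling between libraries. These 3 ratios were chosen after their values were seen. POLR1B to POLR1A was 2.31, 2.31 and 2.29 in lactate and 2.21, 2.11 and 2.11 in untreated libraries, a difference of 0.10 on the log2 scale. POLR2B to POLR2A was 1.16, 1.22 and 1.29 in lactate and 0.982, 1.06 and 1.11 in untreated libraries, a difference of 0.22. POLR3B to POLR3A was 0.659, 0.701 and 0.709 in lactate and 0.562, 0.551 and 0.599 in untreated libraries, a difference of 0.27. Each gave p = 0.1 in an exact two-sided permutation test, the smallest that 3 libraries against 3 allow, and 0.133 after Benjamini-Hochberg adjustment over 4 ratios. In each pair the smaller subunit's transcript has the lower GC content (44.8% against 51.7% for POLR1B and POLR1A, 41.9% against 56.1% for POLR2B and POLR2A, 44.0% against 49.4% for POLR3B and POLR3A). After removal of the GC and length trend, the differences in log2 fold change within the pairs were -0.0036 for polymerase I, 0.031 for II and 0.16 for III.

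**Figure D3:**
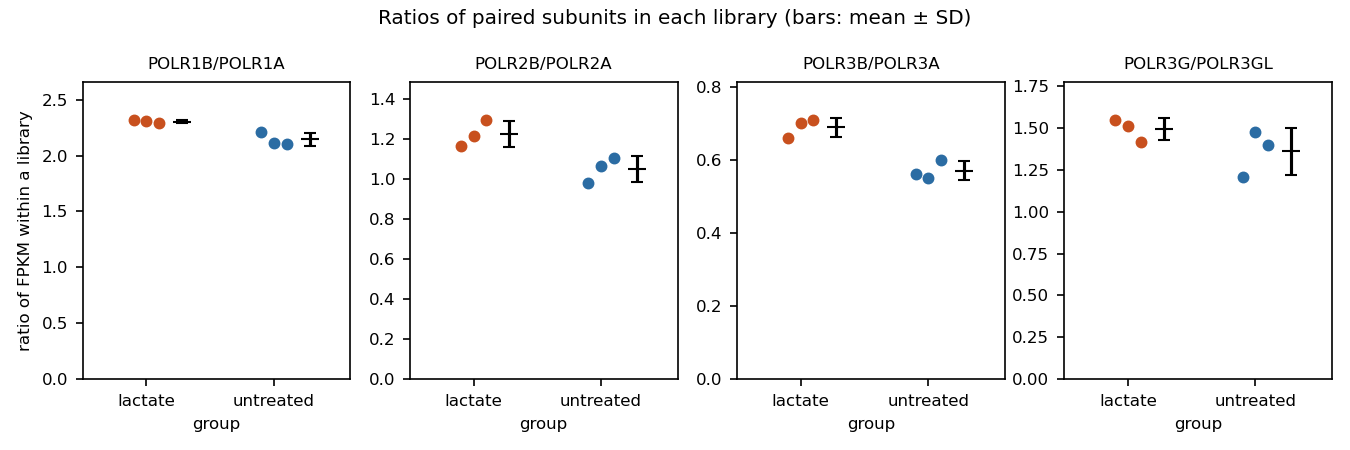
Ratio of FPKM within a library for the catalytic pair of each polymerase and for POLR3G over POLR3GL. Each point is a library, lactate left and untreated right, with mean ± SD beside the points; the lactate points lie above the untreated points in the 3 catalytic pairs (0.659 to 0.709 against 0.551 to 0.599 for POLR3B over POLR3A) and overlap for POLR3G over POLR3GL.

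Of the 4 alpha-like subunits, on which assembly of each enzyme starts, 3 fell and POLR2J did not pass. POLR1C (chromosome 6, 43509702 to 43562419), shared by polymerases I and III, had 5.99, 5.85 and 6.01 FPKM in lactate and 7.82, 8.17 and 7.70 FPKM in untreated libraries. All lactate values lay below all untreated ones, and the mean fell by 24.6% (log2 fold change -0.36, SE 0.0319, limma adjusted p = 9.97e-05). Its partner POLR1D averaged 11.4 ± 0.293 FPKM in lactate and 13.5 ± 0.0486 FPKM in untreated cells (log2 fold change -0.22, limma adjusted p = 0.000422). Variants of both genes are known from Treacher Collins syndrome, a disorder of craniofacial development. POLR2C (chromosome 16, 57462387 to 57472010), the counterpart in polymerase II, had 55.3, 54.1 and 53.5 FPKM in lactate, against 67.7, 67.6 and 67.6 FPKM in untreated libraries. It had the smallest p of all members (log2 fold change -0.31, SE 0.0195, limma adjusted p = 2.61e-05). POLR2J, the partner of POLR2C, varied more, with 38.0, 46.4 and 43.9 FPKM in lactate and 46.4, 54.8 and 52.9 FPKM in untreated libraries. The highest lactate value lay just under the lowest untreated value, and the log2 fold change of -0.26 was just outside the threshold (limma adjusted p = 0.0521; 0.000202 with the replicate number as a block). With the GC and length trend removed POLR1C stood at -0.39, POLR1D at -0.24, POLR2C at -0.22 and POLR2J at -0.08.

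Start regions of 4 members, chosen after matches and calls were seen, show what such regions look like with an ETS match (POLR1C, POLR2C and POLR2F) and with none of the motifs searched (POLR1F). Having some match did not go with a single call: POLR2B and POLR2M rose and hold a GC box, and POLR1A fell and holds no match. Each is the 250 bases before the gene start in RefSeq (GRCh38.p14), written 5′ to 3′ on the gene's strand, with motif matches in capitals. RefSeq start regions were at hand for 24 of the 33 gene names, with 30 regions in all.
POLR1C, chr6:43516839-43517088, plus strand: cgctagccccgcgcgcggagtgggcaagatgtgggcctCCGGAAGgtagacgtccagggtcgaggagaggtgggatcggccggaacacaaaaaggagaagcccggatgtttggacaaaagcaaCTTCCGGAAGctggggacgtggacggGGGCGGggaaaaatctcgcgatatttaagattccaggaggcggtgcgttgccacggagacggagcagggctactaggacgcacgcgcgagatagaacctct
POLR2C, chr16:57462429-57462678, plus strand: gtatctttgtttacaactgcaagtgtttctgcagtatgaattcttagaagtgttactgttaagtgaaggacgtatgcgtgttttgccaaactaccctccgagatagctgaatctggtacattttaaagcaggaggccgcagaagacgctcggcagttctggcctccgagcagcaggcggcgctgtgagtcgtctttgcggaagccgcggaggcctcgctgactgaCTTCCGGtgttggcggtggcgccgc
POLR2F, chr22:37953449-37953698, plus strand: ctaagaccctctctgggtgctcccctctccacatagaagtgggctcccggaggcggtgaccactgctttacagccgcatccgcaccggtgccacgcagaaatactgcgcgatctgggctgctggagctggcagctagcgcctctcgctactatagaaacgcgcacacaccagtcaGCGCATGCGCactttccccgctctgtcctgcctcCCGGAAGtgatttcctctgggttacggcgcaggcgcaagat
POLR1F, chr7:19709038-19709287, minus strand: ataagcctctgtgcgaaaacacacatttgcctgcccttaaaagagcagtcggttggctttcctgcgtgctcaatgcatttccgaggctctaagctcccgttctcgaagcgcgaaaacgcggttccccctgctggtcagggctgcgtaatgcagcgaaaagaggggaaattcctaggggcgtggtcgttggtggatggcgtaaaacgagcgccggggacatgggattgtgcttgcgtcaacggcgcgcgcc
The motifs of 8 factors or elements were searched on both strands. The ETS factor motif, searched as CCGGAAG, stood in 8 of the 30 regions (26.7%), against 15.5% of the 11981 regions of tested genes and 8.52% of all 35116 regions. In POLR1C a pair of its matches on opposite strands overlap. POLR1B has an ETS match in each of a pair of regions, so 7 of the 24 genes hold the motif. The NRF1 palindrome, which is the run of capitals nearer the 5′ end of the POLR2F region, stood in 4 of the 30 (13.3%), against 1.71% of regions of tested genes. A pair of these are overlapping regions of POLR2F with the same match, so 3 of the 24 genes hold it. The GC box, searched as GGGCGG, was about as frequent in the members (70.0%) as in regions of tested genes (65.7%). The E-box, searched as CACGTG, stood in 10.0% of the members' regions and 8.57% of those of tested genes. The CCAAT box stood in 6 of the 30 regions and in 33.6% of those of tested genes. The TATA box, searched as TATAAA, and the CRE, searched as TGACGTCA, each stood in 1 member region. The YY1 motif, searched as AAGATGGCG, stood in none of the members' regions and in 1.12% of those of tested genes. By call, 6 of the 15 lower genes with a region, 0 of the 3 higher ones and 1 of the 6 not called had an ETS match. For the GC box these counts were 9 of 15, 2 of 3 and 5 of 6. They were 3 of 15, 0 of 3 and 0 of 6 for the E-box, and 4 of 15, 0 of 3 and 2 of 6 for the CCAAT box. For NRF1 they were 2 of 15, 0 of 3 and 1 of 6. With 3 higher genes such counts cannot show whether a motif goes with a call. These are matches of letters in a window and not measured binding sites.

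The small subunits common to all 3 enzymes fell together. POLR2L had 146, 158 and 144 FPKM in lactate and 194, 201 and 197 FPKM in untreated libraries. It fell by 24.4%, with a log2 fold change of -0.40 (SE 0.0343, limma adjusted p = 8.38e-05). With the trend removed it stood at -0.23, where POLR1C was lower at -0.39. POLR2E had 36.4, 39.1 and 37.4 FPKM in lactate and 44.7, 46.3 and 45.1 FPKM in untreated libraries (log2 fold change -0.26, limma adjusted p = 0.000298). POLR2H had 44.4, 45.5 and 44.4 FPKM in lactate and 49.9, 50.5 and 50.6 FPKM in untreated libraries (log2 fold change -0.17, limma adjusted p = 0.000358). Lactate and untreated values did not overlap in any of these 3 genes. POLR2F averaged 10.2 ± 0.530 FPKM in lactate and 13.1 ± 0.581 FPKM in untreated cells (log2 fold change -0.34, limma adjusted p = 0.000558). POLR2K averaged 43.0 ± 1.84 FPKM in lactate and 46.7 ± 0.439 FPKM in untreated cells (log2 fold change -0.12, limma adjusted p = 0.0143). After quantile normalization POLR2H (log2 fold change -0.044, limma adjusted p = 0.114) and POLR2K (-0.0096 and 0.835) missed the threshold. POLR2K also missed it with read totals (0.198) and without the filter (0.0590), and POLR2H stood at -0.09 with read totals. Once the GC and length trend was taken out, POLR2H missed it too (-0.05, limma adjusted p = 0.0690), while POLR2K stood at -0.18. Exons of POLR2L overlap those of CD151 on the opposite strand over 22.5% of its length.

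The zinc-ribbon subunits of the 3 enzymes, which take part in cleavage of stalled transcripts, all fell. POLR1H, that of polymerase I, had 4.48, 4.98 and 4.23 FPKM in lactate and 5.68, 5.75 and 5.37 FPKM in untreated libraries (log2 fold change -0.25, limma adjusted p = 0.00546). POLR2I, that of polymerase II, had 20.1, 18.9 and 19.2 FPKM in lactate and 22.2, 23.9 and 22.7 FPKM in untreated libraries (log2 fold change -0.23, limma adjusted p = 0.00122). POLR3K, that of polymerase III, had 29.7, 30.7 and 30.3 FPKM in lactate and 39.8, 36.7 and 37.2 FPKM in untreated libraries (log2 fold change -0.31, limma adjusted p = 0.000206). In each gene every lactate library lay below every untreated library. With the GC and length trend removed POLR1H stood at -0.25 and POLR3K at -0.27, and POLR2I at -0.06, where it did not pass (limma adjusted p = 0.228). Exons of POLR2I overlap on the opposite strand with those of AD001527.2 (61.9% of its length) and TBCB (32.9%), and those of POLR1H with ZNRD1ASP (24.5%). Whether strand was used in counting is not given, so reads of such pairs cannot be told apart.

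The polymerase-specific periphery of polymerase I moved both ways. POLR1E and POLR1G form a heterodimer related to the polymerase II factor TFIIF. POLR1E had 29.6, 27.8 and 28.2 FPKM in lactate and 36.0, 36.8 and 35.2 FPKM in untreated libraries (log2 fold change -0.32, limma adjusted p = 0.000115). POLR1G (chromosome 19, 45406209 to 45410766) had 5.07, 4.57 and 4.45 FPKM in lactate and 6.65, 6.40 and 6.39 FPKM in untreated libraries (log2 fold change -0.39, limma adjusted p = 0.000317). POLR1G fell by 27.5%, the largest percent fall of all members. Its exons overlap those of ERCC1 on the opposite strand over 43.5% of its length. POLR1F (chromosome 7, 19695462 to 19709087), the stalk subunit through which polymerase I meets its initiation factor, had 21.8, 20.3 and 21.4 FPKM in lactate and 17.7, 17.8 and 16.9 FPKM in untreated libraries. All lactate values lay above all untreated ones, and POLR1F rose by 21.1% (log2 fold change 0.26, SE 0.0349, limma adjusted p = 0.000559). With the trend on GC content and length removed, POLR1F stood at 0.13 (limma adjusted p = 0.00958), POLR1E at -0.19 and POLR1G at -0.28.

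Of the stalk subunits of polymerase II, POLR2G fell and POLR2D was not called. POLR2G, a stalk subunit of polymerase II, had 49.3, 52.6 and 50.2 FPKM in lactate and 65.3, 61.2 and 65.4 FPKM in untreated libraries, with no overlap (log2 fold change -0.33, limma adjusted p = 0.000207; -0.19 with the trend removed). Its stalk partner POLR2D averaged 10.5 ± 0.0720 FPKM in lactate and 11.0 ± 0.381 FPKM in untreated cells and was not called (log2 fold change -0.06, limma adjusted p = 0.137); its sign turned with read totals (0.0071), and with the trend removed it was called lower (-0.09 and 0.0317). CRCP, a stalk subunit of polymerase III, which the name pattern does not include, averaged 17.4 ± 0.597 FPKM in lactate and 20.7 ± 0.865 FPKM in untreated cells (log2 fold change -0.24, limma adjusted p = 0.00133).

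Among the subunits found only in polymerase III, the TFIIF-like pair fell and the initiation trimer was split. POLR3D averaged 5.07 ± 0.237 FPKM in lactate and 5.93 ± 0.189 FPKM in untreated cells (log2 fold change -0.19, limma adjusted p = 0.00473). POLR3E averaged 6.65 ± 0.183 FPKM in lactate and 7.57 ± 0.192 FPKM in untreated cells (log2 fold change -0.16, limma adjusted p = 0.00399; -0.10 with read totals). The trimer that opens the promoter consists of POLR3C, POLR3F and either POLR3G or its paralog POLR3GL. POLR3C (chromosome 1, 145824088 to 145842505) had 11.1, 11.1 and 11.0 FPKM in lactate and 14.2, 14.4 and 13.9 FPKM in untreated libraries, a fall of 0.33 on the log2 scale (SE 0.0249, limma adjusted p = 4.96e-05). POLR3F averaged 6.93 ± 0.492 FPKM in lactate and 6.31 ± 0.295 FPKM in untreated cells, with overlapping libraries, and was not called (log2 fold change 0.12, limma adjusted p = 0.0947; 0.0187 with read totals and 0.0396 without lactate replicate 2; fold change 0.046 with the trend removed).

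POLR3G (chromosome 5, 90471748 to 90514553), the form of that subunit known from pluripotent and transformed cells, rose. It had 8.0, 7.81 and 7.55 FPKM in lactate and 6.45, 6.47 and 6.52 FPKM in untreated libraries, with no overlap (log2 fold change 0.23, SE 0.0304, limma adjusted p = 0.000534). POLR3GL, the form found in most tissues, had 5.17, 5.15 and 5.33 FPKM in lactate and 5.35, 4.39 and 4.66 FPKM in untreated libraries. The highest POLR3GL value was in untreated replicate 1, and the log2 fold change of 0.10 was not called (limma adjusted p = 0.169; 0.0113 without that library). The ratio of POLR3G to POLR3GL was 1.55, 1.51 and 1.42 in lactate and 1.21, 1.47 and 1.40 in untreated libraries. The groups overlapped, and the difference of 0.14 on the log2 scale had p = 0.2 in an exact two-sided permutation test, where 0.1 is the smallest possible. Without the trend in GC content and length the order turned: POLR3G stood at 0.12 and POLR3GL at 0.21 (limma adjusted p = 0.0144).

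POLR2M and the copies of POLR2J are the members least tied to the core of polymerase II. POLR2M, known as Gdown1, binds polymerase II and restrains initiation. It had 5.44, 5.07 and 5.50 FPKM in lactate and 4.58, 4.70 and 4.61 FPKM in untreated libraries, with no overlap (log2 fold change 0.17, SE 0.0364, limma adjusted p = 0.00543). With the GC and length trend removed its fold change was -0.0020 (limma adjusted p = 0.968). Its transcript has 37.6% GC. POLR2J2 and POLR2J3 are near copies of POLR2J beside it on chromosome 7, and reads may be split among them. POLR2J2 had 1.13, 1.03 and 1.26 FPKM in lactate and 1.34, 1.48 and 1.37 FPKM in untreated libraries, on as few as 70 reads (log2 fold change -0.16, limma adjusted p = 0.0432). The POLR2J2 call was lost without any 1 library other than lactate replicate 3 (0.0566 to 0.125), with the replicate number as a block (0.0773), with read totals (0.110), without the filter (0.111) and with voom on recovered reads (0.132), and its fold change was -0.0052 with the trend removed. The tested POLR2J3 entry, ENSG00000168255, had 1.92, 1.67 and 1.54 FPKM in lactate and 1.90, 1.52 and 1.73 FPKM in untreated libraries. It did not differ beyond the spread (log2 fold change -0.0037, limma adjusted p = 0.968). The other entry, ENSG00000285437, overlaps it by 49.3% of the exon length of ENSG00000168255 and had 0.480, 0.461 and 0.487 FPKM in lactate and 0.408, 0.497 and 0.455 FPKM in untreated libraries.

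Fold changes of the members moved with the GC content of their transcripts. Across the 33 tested members Spearman's rho between log2 fold change and GC content was -0.55, and with gene length it was 0.22; over 9881 tested protein-coding genes the values were -0.48 and 0.32. With mean level rho was -0.39 across the members and -0.31 across those protein-coding genes (-0.27 and -0.22 with the GC and length trend removed). These are descriptions across genes measured in the same 6 libraries, and genes are not independent replicates. The 4 members that rose had 34.3% to 41.9% GC, and the median GC content was 37.5% for them and 51.1% for the 21 that fell. POLR2K, with 35.2% GC, fell all the same. With the trend on GC content and length taken out, 23 members were called (48.6% of all genes so tested), 19 lower (25.7% of all genes) and 4 higher (POLR1F, POLR2B, POLR3G and POLR3GL; 22.9% of all genes). Of the 25 calls 20 held in the same direction. POLR1A, POLR2H, POLR2I and POLR2J2 stayed negative but were not called, and POLR2M turned. The median of the members was -0.13 against -0.0042 over all genes, and the SD of the members' fold changes was 0.15 in place of 0.20. The members of at least 2000 nt and those shorter had medians of -0.16 and -0.26 before the trend was removed, and -0.11 and -0.18 after it.

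**Figure D4:**
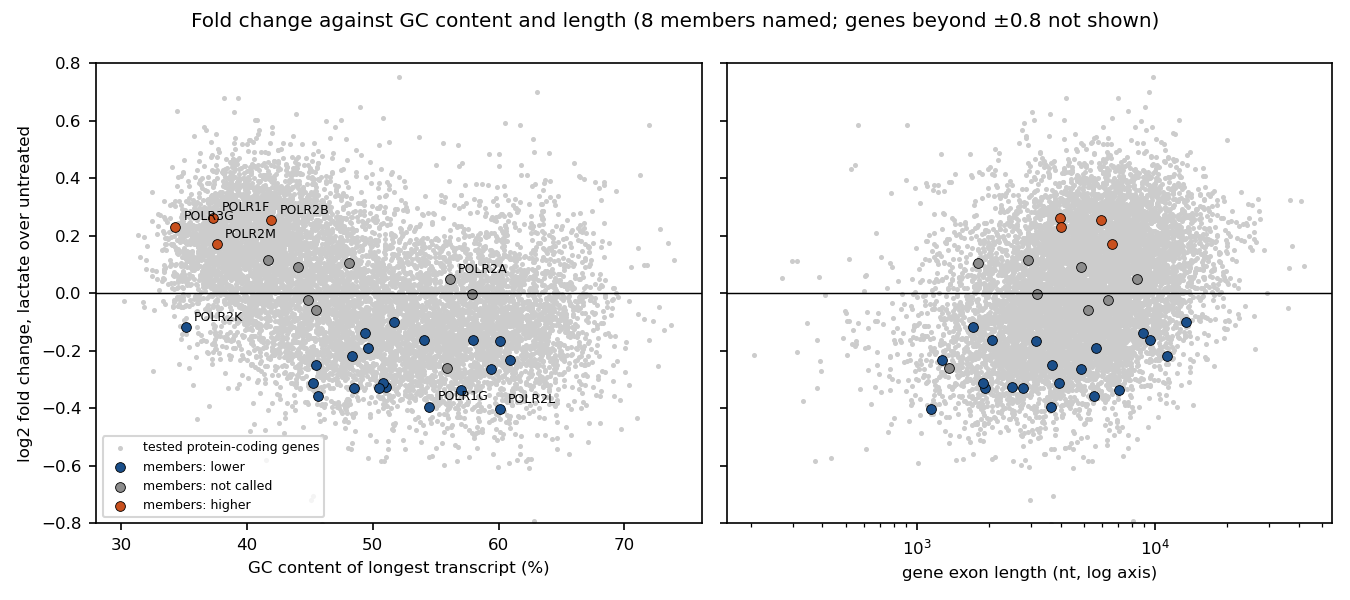
Log2 fold change, lactate over untreated, against GC content of the longest transcript (left) and against exon length on a log axis (right). Grey points are tested protein-coding genes and larger points 32 of the 33 tested members coloured by call, with 8 members named on the left; the 4 that rose lie at 34.3% to 41.9% GC, and POLR2K at 35.2% GC lies below 0.

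Among 7 other lists of transcription genes, the medians of 6 lay between -0.012 and 0.052, and that of the assembly genes was near the subunits'. With the trend on GC content and length removed those 6 lay between -0.079 and 0.014. Over all genes tested 30.9% fell and 27.7% rose (25.7% and 22.9% with the trend removed). Of 16 genes for polymerase assembly and import, 10 fell and 4 rose (median -0.18). With the trend removed 6 were lower and 2 higher (median -0.077). That median lay within the range of the other 6 lists and no longer near that of the subunits, which was -0.13. RUVBL1, an ATPase of the assembly chaperone, averaged 30.4 ± 0.769 FPKM in lactate and 38.0 ± 0.552 FPKM in untreated cells (log2 fold change -0.32, limma adjusted p = 6.27e-05). PFDN2, a prefoldin subunit, changed by -0.21 (limma adjusted p = 5.21e-05), and by -0.014 with the trend removed. Of 11 polymerase I factors, 5 rose and 3 fell (median 0.033), but with the trend removed 3 were higher and 4 lower, and with read totals 7 higher and 3 lower. UBTF, which binds ribosomal DNA, had 6.97, 7.31 and 6.51 FPKM in lactate and 9.43, 9.16 and 9.07 FPKM in untreated libraries (log2 fold change -0.37, limma adjusted p = 0.000280), and TAF1B, of the promoter selectivity factor, rose by 0.22 (0.10 with the trend removed). Of 16 tested polymerase III factors, 7 fell and 4 rose (median -0.0044; 6 lower, 5 higher and -0.079 with the trend removed). GTF3C3, a subunit of the factor that recognises transfer RNA genes, rose by 0.29 and SNAPC3, of the factor for small nuclear RNA genes, by 0.34 (0.11 and 0.18 with the trend removed). MAF1, the gene of a polymerase III repressor, averaged 46.6 ± 2.23 FPKM in lactate and 58.3 ± 1.39 FPKM in untreated cells (log2 fold change -0.32, limma adjusted p = 0.000286; -0.19 with the trend removed).

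For polymerase II, 11 of 31 tested general initiation factors rose and 5 fell (median 0.025), and 9 of 22 elongation factors rose and 8 fell (median 0.052). With the trend removed the general factors stood at 7 higher and 7 lower (median -0.0097) and with read totals at 14 higher and 4 lower. The elongation factors had 8 higher and 6 lower with the trend removed (median 0.012). TAF13, a subunit of TFIID, rose by 0.26 and GTF2A1, of TFIIA, by 0.31 (0.21 and 0.14 with the trend removed). SUPT16H, a histone chaperone of elongating polymerase, averaged 26.6 ± 0.149 FPKM in lactate and 20.7 ± 0.259 FPKM in untreated cells (log2 fold change 0.35, limma adjusted p = 2.64e-05), and TCEA1, the transcript cleavage factor, rose by 0.31 (0.17 with the trend removed). SSRP1, in the same list as SUPT16H, went the other way at -0.33 (limma adjusted p = 4.68e-05). With the trend removed SUPT16H stood at 0.26 and SSRP1 at -0.27. Of 10 tested genes in the list of C-terminal domain kinases and phosphatases, 4 fell, among them the phosphatase genes SSU72 (-0.26) and CTDSP1 (-0.25), and 3 rose; with the trend removed 4 were lower and 1 higher. Of 9 genes of mitochondrial transcription, 1 rose (MTERF3, 0.24) and 1 fell (TFB2M, -0.15), and POLRMT, the mitochondrial polymerase, was not called (-0.05, limma adjusted p = 0.396). With the trend removed 3 of these 9 were lower and 1 higher. The lists were not tested against each other or against all genes, of which 27.7% were higher and 30.9% lower. Those shares were 22.9% and 25.7% with the trend removed, and 35.6% and 21.4% with read totals.

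**Figure D5:**
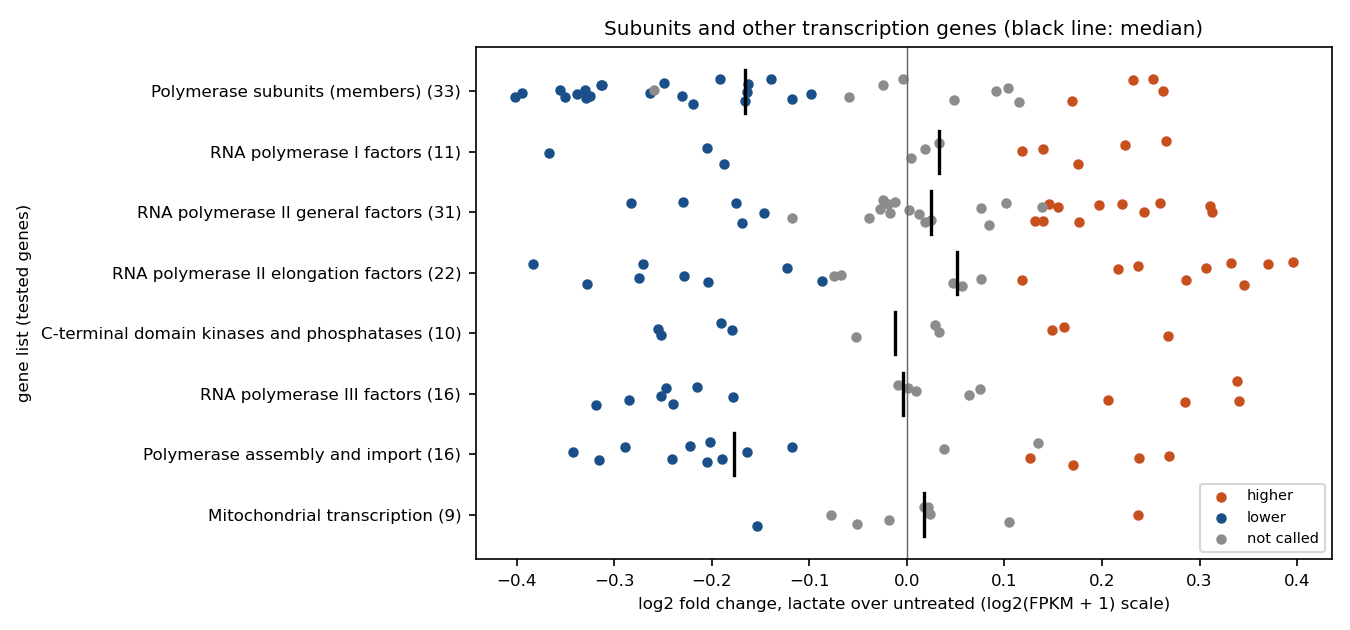
Log2 fold change, lactate over untreated, of the tested members and of 7 other lists of transcription genes, with the number of tested genes in brackets. Each point is a gene coloured by call and the black line is the median, which is -0.17 for the subunits, -0.18 for assembly and import genes and between -0.012 and 0.052 for the other 6 lists.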

How the data were processed

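RNA-seq libraries of CAL27 cells, 3 with lactate and 3 untreated, were grouped by the treatment label. The build hg38 and the tools featureCounts 1.5.0-p3, HISAT2 2.0.5, fastp and StringTie 1.3.3b are listed, per the submitters' processing notes. What each tool did, the annotation and the use of strand are not given there. FPKM per gene is the unit the authors deposited. Whole reads were recovered from FPKM steps for 31366 of 31368 genes (within 0.01 reads). Limma 3.58.1 (R 4.3.3, trended and robust variance) was run on log2(FPKM + 1) for genes that reached 1 FPKM in 3 or more libraries, with Benjamini-Hochberg adjustment. SE is limma's moderated one. Ratios were tested by exact permutation. GC content, length and exons came from GENCODE on GRCh38, and start regions from RefSeq. The GC and length trend was removed per library with natural splines (4 degrees of freedom) for 11588 genes. The test was tried on simulated data. Python 3.11.15 did the rest. Members, lists and alternatives were chosen with earlier results of these data known. Named genes were the catalytic pairs, paralogs, the 4 members with the smallest p per class and the 2 list genes with the smallest p. CRCP was looked up apart from the members, and MAF1, POLRMT and SSRP1 were named after their values were seen. The values of 1 member are not reported here, though it is included in the counts and medians.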

Additional observations from a re-analysis of the deposited data

How the results depend on the processing

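Across 19 alternatives, 3 of the 4 risen members (POLR1F, POLR2B and POLR3G) and 12 of the 21 fallen ones kept their direction and call in every alternative that could be fitted. Members called higher numbered 4 or 5 and lower 17 to 22, with these exceptions. Scaled to read totals, 8 were higher. Against a minimum fold of 1.1, 3 members were higher and 12 lower, and 1295 genes were higher and 1466 lower over all genes. At 5 FPKM in 3 libraries, 6448 genes were tested. Of these 1786 were higher (27.7%, the share also found at 1 FPKM) and 2955 lower (45.8%, against 30.9% at 1 FPKM). POLR2M turned to -0.0020 with the GC and length trend removed, with or without the replicate block. Among members not called, read totals gave 0.039 for POLR1B, 0.0071 for POLR2D and 0.042 for POLR2J3. POLR2J3 was also at 0.12 with the trend removed, with or without the replicate block, and between -0.060 and 0.044 with 1 library left out. The causes were not tested. Same-numbered libraries deviated together with r of 0.053, 0.067 and -0.0038, against -0.071 to 0.022 for libraries of unlike number. With 3 libraries per group these values cannot show whether the numbers mark pairs. With the replicate block 4 members were higher and 20 lower, and 3257 genes were higher and 3782 lower over all genes. The POLR3G to POLR3GL log2 difference was 0.14 with that block. Over its alternatives that difference was 0.054 to 0.20. POLR2J2 had the fewest reads of the tested members, 70 in its lowest library; the part of depth in its call was not tested.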
